A study of Rattus norvegicus with 6 samples.

Results

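The 4 ligands of the glial cell line-derived neurotrophic factor (GDNF) family and their 5 receptors were examined in rat cells labelled PC12, a line from an adrenal pheochromocytoma. The members were the rows of the deposited gene table with the symbols Gdnf, Nrtn, Artn, Pspn, Gfra1, Gfra2, Gfra3, Gfra4 and Ret. All 9 had a single row among 33350 gene models, and 3 of them (Gfra1, Gdnf and Pspn) had a mean of at least 1 FPKM over the 6 libraries, the minimum for the test across genes. The other 6 lay under it. In the 3 EN libraries the cells had received exosomes of endothelial cells made to express netrin-1 (NTN1) highly, and in the 3 EC libraries those of control endothelial cells. Exosomes are small vesicles that carry protein and RNA. All 6 libraries thus came from exosome-treated cells. The sources used here do not give the dose, the time or the species of the endothelial cells. Nothing states that replicates were separate cultures, so that p-values measure the spread between these samples only, which may be technical.

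GDNF, neurturin (Nrtn), artemin (Artn) and persephin (Pspn) are secreted dimers. Each binds a co-receptor of the GFR alpha family, held on the membrane by a lipid anchor, and the complex then activates Ret, a receptor tyrosine kinase. GFR alpha 1 prefers GDNF, GFR alpha 2 neurturin, GFR alpha 3 artemin and GFR alpha 4 persephin. GDNF bound to GFR alpha 1 can also act through the adhesion molecule NCAM (Ncam1) without Ret. In peripheral nerve, Schwann cells make GDNF after injury and it supports motor and sensory neurons, while activating mutations of Ret cause inherited pheochromocytoma.

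The libraries held 16654025 to 19626012 reads in EN and 15296193 to 16165804 in EC, worked back from the deposited values. FPKM is the number of reads scaled to the length of the gene model and to library size. The library size implied by the deposited values was not exactly the total of these reads. It was 0.987 (EC replicate 2) to 1.02 (EN replicate 1) times that total, so ratios per total reads differ slightly from ratios of FPKM. Mitochondrial genes took 4.40%, 4.71% and 5.50% of reads in EN replicates 1 to 3, against 5.43%, 6.09% and 6.08% in EC replicates 1 to 3. The labelled cell type was checked by markers. Of 10 chromaffin markers, 1 (tyrosine hydroxylase, Th) had a mean of at least 1 FPKM, at 1.47, followed by the transcription factor gene Phox2a at 0.313. No read fell on Pnmt or Hand2. The list summed to 2.22 to 2.73 FPKM in EN and 1.61 to 2.14 in EC. The 10 Schwann cell and glial markers summed to 414.4 to 447.6 FPKM in EN and 469.1 to 479.6 in EC, led by S100b and Ngfr at 113 and 107 FPKM over the 6 libraries. Endothelial markers (7 in the table) summed to 3.05 to 3.47 FPKM in EN and 3.01 to 3.63 in EC, led by Tie1 and Tek, with no read on Cldn5. Fibroblast markers (8) summed to 72.0 to 75.3 FPKM in EN and 73.7 to 77.1 in EC. Nearly all of this was Pdgfra and Pdgfrb, at 64.8 and 8.47 FPKM over the 6 libraries. The median of that list was 0.102 FPKM, and 5 of its genes lay under 1 FPKM, with no read on Lum. The defining chromaffin genes were thus near 0 in both groups.

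In these cells 1 receptor and 1 ligand of the family carried nearly all of its transcripts. Gfra1 was at 91.2 ± 7.51 FPKM in EN and 109.7 ± 2.31 in EC, and Gdnf at 9.24 ± 2.39 in EN and 8.02 ± 1.19 in EC (SD, n = 3 each). Ret, the kinase through which all 4 ligands usually signal, was at 0.178 ± 0.0313 FPKM in EN and 0.220 ± 0.0663 in EC. Gfra1 was lower in EN and was the single member of 3 tested that passed (limma, Benjamini-Hochberg adjusted p = 0.031). Over all genes tested, 14.4% passed. Gdnf and Pspn did not pass, and Ret was too low for the test.

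**Figure D1:**
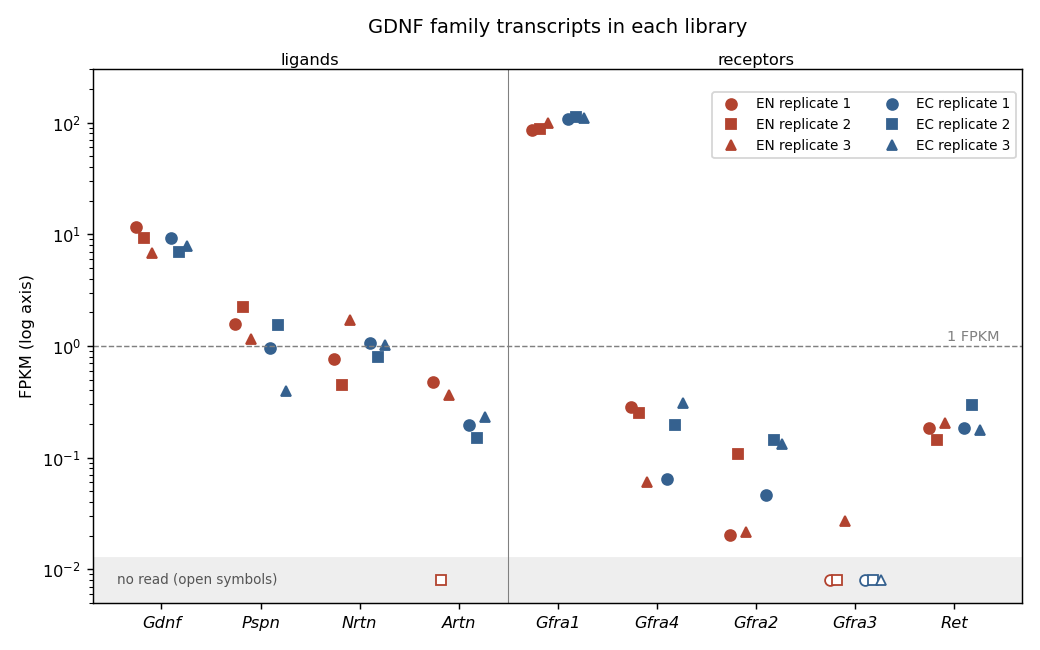
FPKM (log axis) of the 4 ligands and 5 receptors in each of the 6 libraries, with EN in red and EC in blue, symbols by replicate and open symbols for no read. Gfra1 sits at 85.5 to 112 FPKM, Gdnf at 6.81 to 11.6 FPKM, Pspn and Nrtn on both sides of the dashed line at 1 FPKM, and Artn, Ret, Gfra4, Gfra2 and Gfra3 below it.

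Gfra1 encodes the co-receptor that binds GDNF (ENSRNOG00000017438, chromosome 1, 279207586 to 279277339, minus strand, Rnor_6.0, a gene model of 2978 bases). It had 85.5, 88.3 and 99.7 FPKM in EN replicates 1 to 3, against 107, 112 and 110.0 FPKM in EC replicates 1 to 3. These values rest on 4458 to 5234 reads per EN library and 4925 to 5277 per EC library. All EN libraries lay below all EC libraries, with EN replicate 3 nearest to EC. Over all genes tested, 19.4% had every EN library below every EC library. The log2 change on the log2(FPKM + 1) scale was -0.27 (SE 0.0599, 95% interval -0.41 to -0.13), which is a ratio of mean FPKM of 0.831. A change of at least this size was found in 18.0% of the 12198 genes tested. In bulk RNA, fewer cells with Gfra1 and less Gfra1 RNA per cell cannot be told apart.

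The Gfra1 call did not hold when libraries were left out singly. The adjusted p (limma) was 0.089 without EN replicate 1 and 0.109 without EN replicate 2. It was 0.0514, 0.107 and 0.0975 when EC replicate 1, 2 or 3 was left out. It was 0.0103 without EN replicate 3, the EN library closest to EC. Gfra1 remained lower in EN in all 6 of these fits, with log2 changes of -0.33 to -0.22. With genes of any level in the fit the adjusted p was 0.0672. The share of mitochondrial reads differed in the same libraries: it was lower in EN replicates 1 and 2 than in all EC libraries, and in EN replicate 3 it lay within the EC range. The part of this in the Gfra1 difference was not tested. The Schwann and glial markers were also lower in EN as a sum. Of 9 tested, 5 passed as lower and 1 as higher, against 7.14% and 7.24% of all genes tested. The part of these markers in the Gfra1 difference was not tested either.

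The start regions of the genes for the high co-receptor, its ligand and the kinase at the low end are given for reference, from RefSeq on GRCr8, a later build than that of the table. Each runs 250 bases before to 50 after the start that RefSeq lists, 5′ to 3′ on the gene's strand, and whether transcripts in these cells begin there was not measured. The windows are chr1:267555762-267556061 (minus strand) for Gfra1, chr2:58621077-58621376 (plus strand) for Gdnf and chr4:153040507-153040806 (minus strand) for Ret. Capitals mark matches on either strand to the motifs named after them.
Gfra1: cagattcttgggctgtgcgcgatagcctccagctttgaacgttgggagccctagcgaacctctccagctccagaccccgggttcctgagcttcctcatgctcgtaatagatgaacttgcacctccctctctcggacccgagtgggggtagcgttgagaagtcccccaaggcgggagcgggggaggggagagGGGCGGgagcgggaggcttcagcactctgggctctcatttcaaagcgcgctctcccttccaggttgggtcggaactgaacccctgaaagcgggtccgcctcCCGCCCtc
Gdnf: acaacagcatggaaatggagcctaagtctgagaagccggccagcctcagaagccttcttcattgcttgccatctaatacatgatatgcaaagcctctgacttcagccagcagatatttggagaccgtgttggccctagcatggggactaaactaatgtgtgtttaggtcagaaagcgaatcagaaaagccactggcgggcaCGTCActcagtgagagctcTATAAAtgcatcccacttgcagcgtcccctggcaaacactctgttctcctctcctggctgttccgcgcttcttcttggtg
Ret: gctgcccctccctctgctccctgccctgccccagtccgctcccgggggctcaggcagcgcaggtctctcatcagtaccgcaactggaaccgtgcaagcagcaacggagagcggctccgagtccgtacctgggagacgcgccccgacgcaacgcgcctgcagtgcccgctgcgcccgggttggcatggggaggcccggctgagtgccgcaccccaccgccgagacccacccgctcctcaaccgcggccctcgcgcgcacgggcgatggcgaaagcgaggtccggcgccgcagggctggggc
Both strands were searched for 7 motifs. Over 33469 windows of the same length, the GC box GGGCGG occurred in 33.1%, the TATA box TATAAA in 14.2%, CCAAT in 37.5%, the E-box CACGTG in 6.42% and the AP-1 motif TGANTCA in 7.33%. The cyclic AMP response element TGACGTCA occurred in 1.83% and its half-site TGACG, which lies within it, in 21.2%. The Gfra1 window held 2 GC boxes, starting 59 bases before and 42 bases after the listed start. The Gdnf window held a TATA box starting 30 bases before the start and a half-site of the cyclic AMP element 49 bases before it. In the Ret window, 74.0% of bases were G or C, against 63.0% for Gfra1, 50.7% for Gdnf and a median of 51.7% over all windows, and none of the 7 motifs matched there. A match is a description of letters, not of binding.

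Among the ligands, Gdnf (ENSRNOG00000012819, chromosome 2, 56887987 to 56910238, plus strand, a model of 700 bases) had the highest level. It had 11.6, 9.33 and 6.81 FPKM in EN replicates 1 to 3, against 9.27, 6.91 and 7.89 FPKM in EC replicates 1 to 3. The groups overlapped, and the EN libraries held both the highest and the lowest value. The log2 change was 0.16 (SE 0.179, limma adjusted p = 0.566), with a 95% interval of -0.26 to 0.59 that includes no difference, and it was 0.0020 without EN replicate 1 and 0.35 without EN replicate 3. Leaving out EC replicate 1 gave 0.26, and leaving out EC replicate 2 gave 0.07. The adjusted p (limma) was 0.133 to 0.996 over the 6 fits with 1 library left out. Gdnf made up 67.9% to 80.5% of the summed FPKM of the 4 ligands in EN and 73.5% to 82.7% in EC.

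Pspn, for persephin (ENSRNOG00000049171, chromosome 9, 10044756 to 10045314, plus strand, a model of 471 bases), was near the minimum for testing. It had 1.58, 2.24 and 1.15 FPKM in EN replicates 1 to 3, against 0.964, 1.55 and 0.395 FPKM in EC replicates 1 to 3. The groups overlapped. The reads were 13, 21 and 9 in EN and 7, 11 and 3 in EC. The ratio of mean FPKM was 1.71, and the log2 change of 0.46 (SE 0.259, 95% interval -0.16 to 1.07) did not pass (limma adjusted p = 0.269). This interval includes no difference. The log2 change was 0.23 without EC replicate 3 and 0.30 without EN replicate 2. It was 0.83 with a pseudocount of 0.1 and 0.92 with voom on whole reads, and it passed in none of these fits (adjusted p of 0.251 to 0.574).

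Neurturin and artemin transcripts were rarer. Nrtn (ENSRNOG00000048651, chromosome 9, 10305470 to 10306597, plus strand) had 0.766, 0.449 and 1.71 FPKM in EN replicates 1 to 3, against 1.06, 0.789 and 1.02 FPKM in EC replicates 1 to 3. The EN values spread to both sides of the EC values. Artn (ENSRNOG00000019842, chromosome 5, 136759717 to 136762986, minus strand) had 0.472, 0 and 0.363 FPKM in EN replicates 1 to 3, against 0.195, 0.149 and 0.233 FPKM in EC replicates 1 to 3. EN replicate 2, the deepest library, held no Artn read, which allows up to 0.113 FPKM there (3 reads), while the other EN libraries lay above all EC libraries. Exact two-sided permutation tests of mean FPKM gave p = 1 for Nrtn and p = 0.6 for Artn, and 3 against 3 libraries cannot go below 0.1.

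Among the receptors other than Gfra1, none reached 1 FPKM. Ret (ENSRNOG00000014751, chromosome 4, 150202058 to 150244372, minus strand, a model of 5586 bases) had 0.184, 0.144 and 0.205 FPKM in EN replicates 1 to 3, against 0.186, 0.296 and 0.178 FPKM in EC replicates 1 to 3. The groups overlapped, and each library held reads: 18, 16 and 19 in EN, and 16, 25 and 16 in EC. Per total reads the EN to EC ratio was 0.817, with an exact 95% interval of 0.551 to 1.21 that covers counting error only (exact permutation p = 0.5 on FPKM). Per length, Gfra1 exceeded Ret 465-fold to 614-fold in EN and 378-fold to 619-fold in EC.

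The other 3 co-receptors were at the edge of detection. Gfra4 (ENSRNOG00000021241, chromosome 3, 123578997 to 123581518), the persephin receptor, had 5, 5 and 1 reads in EN and 1, 3 and 5 in EC. Gfra2 (ENSRNOG00000014010, chromosome 15, 52557607 to 52648972), the neurturin receptor, had 1, 6 and 1 reads in EN and 2, 6 and 6 in EC. Both groups overlapped for each gene. The EN to EC ratio per total reads was 1.07 (exact 95% interval 0.404 to 2.93) for Gfra4 and 0.502 (0.182 to 1.28) for Gfra2, counting error only. Gfra3 (ENSRNOG00000020309, chromosome 18, 27491845 to 27520295), the artemin receptor, had 1 read in EN replicate 3 and none elsewhere, and 3 reads would be 0.0678 to 0.0894 FPKM in single libraries. Gfra1 therefore made up at least 99.6% of the summed FPKM of the 4 co-receptors in every library.

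**Figure D2:**
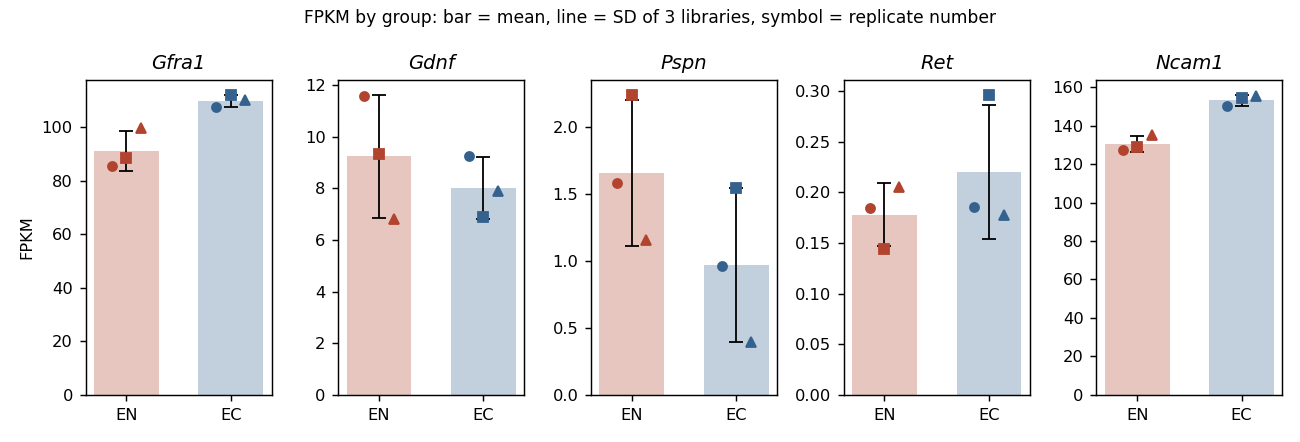
FPKM of Gfra1, Gdnf, Pspn, Ret and the adhesion gene Ncam1 in EN (left) and EC (right), with bars for the mean, lines for the SD of 3 libraries and a symbol per replicate, on axes that start at 0. The EN libraries lie below the EC libraries for Gfra1 and Ncam1, and the groups overlap for Gdnf, Pspn and Ret.

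The order of mean levels per length over the 6 libraries was Gfra1, Gdnf, Pspn, Nrtn, Artn, Ret, Gfra4, Gfra2 and Gfra3. The mean of Gfra1 was 11.6-fold that of Gdnf and the mean of Gdnf 6.58-fold that of Pspn, and this order, though not the size of the folds, held in all 6 libraries. Pspn lay above Nrtn in 3 of 6 libraries, Artn above Ret in 4 of 6 and Ret above Gfra4 in 3 of 6, so the order within these pairs was within the spread. Nrtn exceeded Artn and Gfra4 exceeded Gfra2 per length within each library, although their ranges over libraries overlapped. For Gfra4 and Gfra2 this order rests on the model lengths (1008 and 2792 bases), since they had 20 and 22 reads in all. All levels in the order depend on the deposited model lengths, which are short for Gdnf, Pspn and Nrtn (700, 471 and 671 bases). No other gene model of the table overlapped a member.

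By root mean square difference of centred log2(FPKM + 1) values over the 6 libraries, the tested genes with a pattern close to Gfra1 included Vps41 (0.0179) and Kif2a (0.0209). Vps41 had 38.2, 40.4 and 44.3 FPKM in EN replicates 1 to 3, against 48.4, 49.6 and 48.6 FPKM in EC replicates 1 to 3. Kif2a had 27.2, 28.2 and 31.4 FPKM in EN replicates 1 to 3, against 33.4, 36.3 and 34.4 FPKM in EC replicates 1 to 3. Both genes share with Gfra1 a value in EN replicate 3 that lies between the other EN libraries and EC. Both were picked for this likeness out of 12198 genes, so it is a description.

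Other genes of the pathway were read from 6 lists with 65 entries, of which 63 had a row and 47 were tested. Of these, 5 passed as higher in EN and 6 as lower, leaving 36, which is 23.4% called, against 14.4% of all genes tested (7.24% higher and 7.14% lower). The median log2 change was 0.01 over the lists and -0.0028 over all genes tested. The count of 11 fell to 3 when EN replicate 1, EN replicate 2 or EC replicate 3 was dropped. It fell to 4 when EC replicate 2 was dropped. Dropping EC replicate 1 gave 9, dropping EN replicate 3 gave 13, and using no expression minimum gave 6. The 1754 calls among all genes in the fit moved in the same directions. They fell to 446 and 344 for EN replicates 1 and 2, and to 408 and 338 for EC replicates 3 and 2. They were 1616 for EC replicate 1, 2059 for EN replicate 3 and 866 with no expression minimum.

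Of 6 tested alternative receptors and modulators of the GDNF receptor, 1 passed as higher and 1 as lower. The shares over all genes tested were 7.24% higher and 7.14% lower. Ncam1, which can carry a GDNF signal together with GFR alpha 1, had 127, 129 and 135 FPKM in EN replicates 1 to 3, against 150.0, 154 and 155 FPKM in EC replicates 1 to 3. All EN libraries were lower than all EC libraries (log2 change -0.23, SE 0.0368, limma adjusted p = 0.0135), and the call was lost without EN replicate 1, EN replicate 2, EC replicate 2 or EC replicate 3 (highest adjusted p 0.0648). The ratio of Gfra1 to Ncam1 within a library was 0.699 ± 0.0355 in EN and 0.716 ± 0.00928 in EC (SD, n = 3 each, exact permutation p = 0.5). The difference was smaller than the SD in EN but not than that in EC, and the EC values lay within the EN range. Gdf15, whose product signals through Gfral and Ret in the brainstem, was at 3.53 ± 0.584 FPKM in EN and 2.23 ± 0.160 in EC (log2 change 0.48, SE 0.119, limma adjusted p = 0.0413). Its call was lost with each library left out, with the replicate block, with voom and with genes of any level in the fit. Gfral itself had no read, which allows up to 0.0252 FPKM over the 6 libraries (3 reads). The other 4 tested genes of the list, the heparan sulphate carrier Sdc3, Gas1, the receptor inhibitor Lrig1 and the phosphatase Ptprj, did not pass.

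Among enzymes that process the ligand precursors, Furin, a convertase that cuts pro-GDNF, was at 46.8 ± 1.19 FPKM in EN and 39.3 ± 2.03 in EC (log2 change 0.25, SE 0.0481, limma adjusted p = 0.0219), and the other 2 tested convertases, Pcsk6 and Pcsk7, did not pass. The Furin call was lost without EN replicate 1, EN replicate 2, EC replicate 2 or EC replicate 3 (highest adjusted p 0.0824). Of 18 tested adaptors and effectors that dock on Ret and other receptor kinases, 2 passed as higher and 1 as lower. The other 15 missed the threshold, and the median log2 change was 0.01. Over all genes tested, 14.4% passed (7.24% higher and 7.14% lower), so these few calls say little about the list. Shc1, an adaptor towards Ras and PI3 kinase, was at 93.8 ± 4.23 FPKM in EN and 80.7 ± 2.89 in EC, and Pdlim7, a scaffold that binds Ret, at 48.3 ± 3.43 in EN and 41.4 ± 0.683 in EC. Frs2, which docks at the same site of Ret as Shc1, was lower, at 11.9 ± 0.396 FPKM in EN and 13.9 ± 0.436 in EC. Their adjusted p (limma) was 0.0292, 0.0445 and 0.0402. Each call was lost without EN replicate 1, EN replicate 2, EC replicate 2 or EC replicate 3, for Frs2 and Pdlim7 also without EC replicate 1, and with genes of any level in the fit. Pdlim7 is overlapped by another gene model on the same strand, so its value is uncertain.

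Of 6 tested ubiquitin ligases and endocytic adaptors, Nedd4, a ubiquitin ligase, was lower, at 488 ± 15.8 FPKM in EN and 563 ± 15.7 in EC (log2 change -0.21, limma adjusted p = 0.0221). That call was lost without EN replicate 1, EN replicate 2, EC replicate 2 or EC replicate 3, and with genes of any level in the fit. None of the other 5 passed, including Cbl and Cblb, while 7.14% of all genes tested passed as lower. Transcription factors known to act on Ret were split in level. Sox10, which acts on Ret in neural crest cells, was at 105 ± 8.61 FPKM in EN and 103 ± 1.02 in EC and did not pass (adjusted p = 0.770), with a direction that turned without EN replicate 1. Nkx2-1 had no read in any library (chosen after its value was seen, like Gfral and the genes named as not passing). None of the 3 tested factors passed.

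Transcripts that rise downstream of GDNF and Ret in other systems moved in both directions, with 1 of 11 tested genes higher, 3 lower, 7 short of the threshold and a median log2 change of 0.04. Etv4, an ETS factor induced by this pathway in the mouse ureteric bud, was at 39.7 ± 2.79 FPKM in EN and 27.5 ± 1.43 in EC (SD, n = 3 each). The log2 change was 0.51 (SE 0.0639, adjusted p = 0.0068 in limma). Its partner Etv5 was at 56.2 ± 1.63 FPKM in EN and 50.2 ± 2.73 in EC and did not pass (adjusted p = 0.0733). Of 3 tested genes for Sprouty inhibitors of receptor kinase signalling, Spry1 and Spry2 were lower, while Spry4 was at 9.84 ± 0.254 FPKM in EN and 8.91 ± 0.554 in EC and did not pass (log2 change 0.13, limma adjusted p = 0.189). Spry2 was at 64.0 ± 2.18 FPKM in EN and 81.4 ± 1.69 in EC (log2 change -0.34, limma adjusted p = 0.0056), and Spry1 at 18.8 ± 0.730 in EN and 24.1 ± 1.69 in EC (log2 change -0.34, limma adjusted p = 0.0183). Egr1, an immediate early gene, was at 19.0 ± 0.791 FPKM in EN and 38.7 ± 1.17 in EC (log2 change -0.99, limma adjusted p = 3.18e-04). Dusp6, the ERK phosphatase gene and the highest of the list, was at 83.9 ± 1.59 FPKM in EN and 77.3 ± 4.38 in EC and did not pass (adjusted p = 0.143). The calls of Etv4, Spry2 and Egr1 held with each library left out, and that of Spry1 was lost without EN replicate 1, EN replicate 2 or EC replicate 3. Many receptors feed these transcripts, and the part of Ret in them was not tested.

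**Figure D3:**
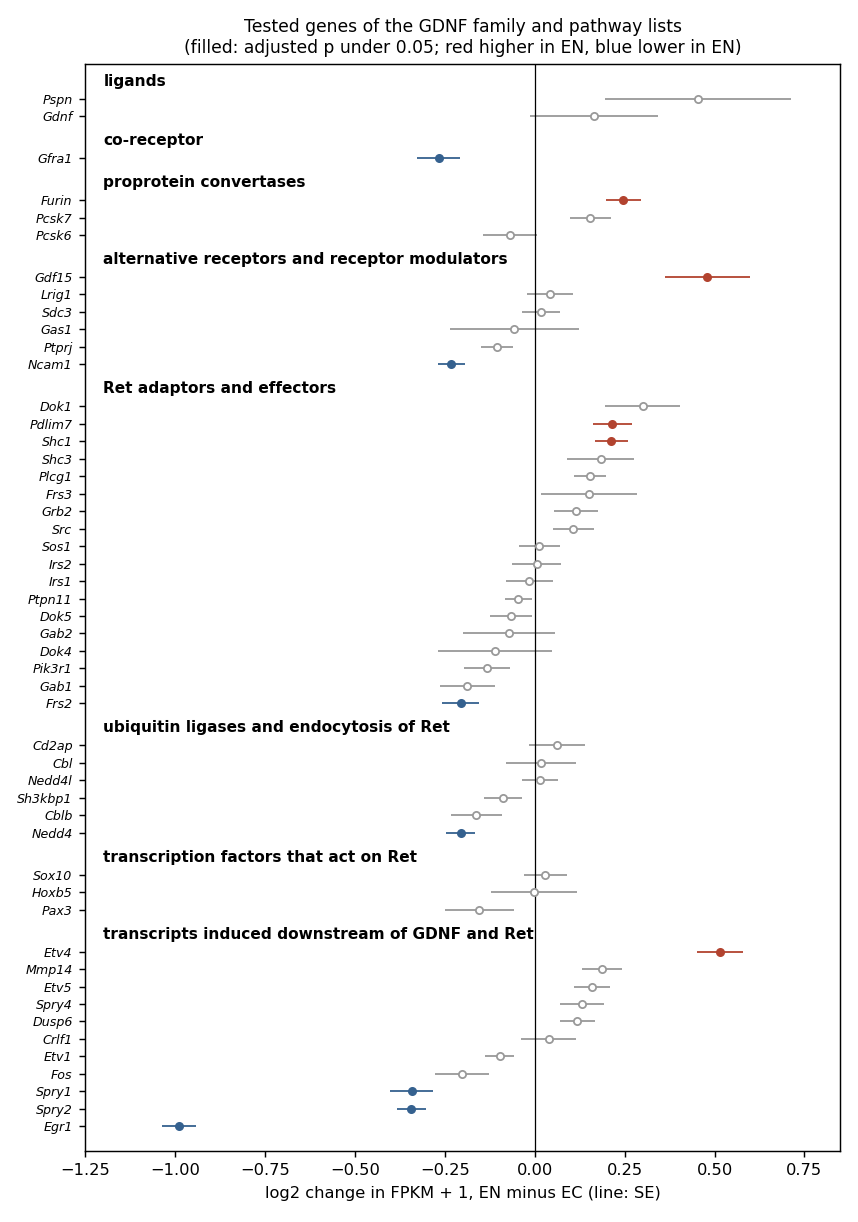
Log2 change in FPKM + 1, EN minus EC, with its SE, for the 3 tested members and the 47 tested genes of the 6 pathway lists, where filled points passed (adjusted p under 0.05), red higher in EN and blue lower in EN. Gfra1 at -0.27 and Ncam1 at -0.23 lie close together, and the widest range is in the last list, between Etv4 at 0.51 and Egr1 at -0.99.

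**Figure D4:**
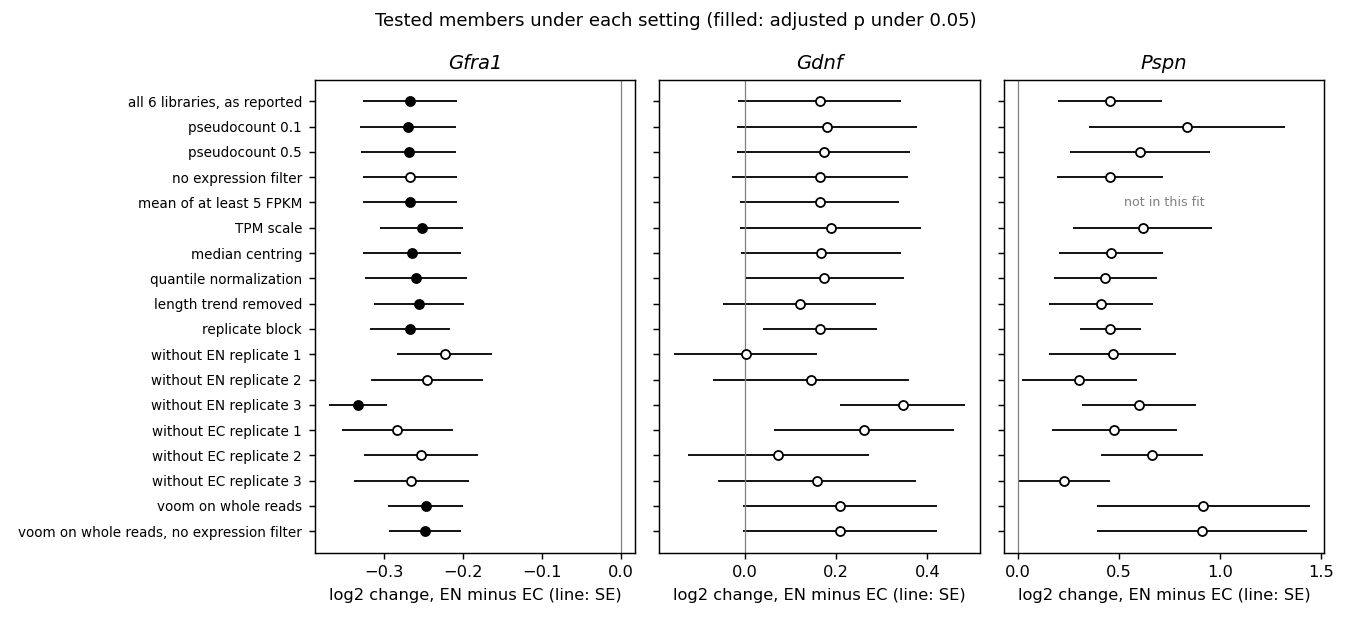
Log2 change of Gfra1, Gdnf and Pspn, EN minus EC, with its SE, for all 6 libraries as reported and under each alternative setting, filled where the adjusted p was under 0.05. Gfra1 stays below 0 in every setting but passes in only 1 of the 6 fits with a library left out, and Gdnf and Pspn stay at or above 0 and pass in none.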

How the data were processed

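RNA from 6 libraries was made into TruSeq libraries from total RNA, per the labels' protocols. The authors deposited 1 table of FPKM for 33350 gene models with coordinates on Rnor_6.0, and HISAT2 2.0.5 is named, per the submitters' processing notes. The sources used here give no counting tool, annotation release or strand setting. Models without a symbol held 0.808% to 0.848% of reads and stayed in the fit.

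FPKM times model length was a whole multiple of 1 step per library in 100.0% of values (within 0.001 of a whole number), which gave reads of 15296193 to 19626012 per library. Read intervals and limits cover counting error only.

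Log2(FPKM + 1) values of the 12198 genes averaging 1 FPKM or more were fitted in limma 3.58.1 (R 4.3.3) by group alone, with its variance trend. Tests were two-sided, and a Benjamini-Hochberg adjusted p under 0.05 was called. The pseudocount of 1 FPKM understates changes of low genes. The procedure was tested on simulated data. Members under 1 FPKM had exact permutation tests. Members and lists were chosen with earlier results of these data known. The text names all members, list members that passed (up to 6 a list), each list's highest gene, the highest 2 and unread genes of each marker list, and genes most like Gfra1, apart from a few items that are not reported here. Sorl1, Vgf and Pecam1 had no matching row and are not analysed here. Promoter windows came from RefSeq (GRCr8), where 8 of 9 members matched.

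Alternatives were other pseudocounts (0.1, 0.5), filters, scales, a replicate block and each library left out. After the data were seen, limma voom on the whole reads was added.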

Additional observations from a re-analysis of the deposited data

How the results depend on the processing

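Gfra1 stayed lower in EN under all alternatives tried, and its call was lost with no expression minimum (log2 change -0.27, adjusted p = 0.0672) and in 5 of 6 fits with 1 library left out, whose log2 changes ranged from -0.33 to -0.22. It held with the other 10 settings, with voom on whole reads at -0.25 (adjusted p = 0.0065). The count of genes past the test was 866 with no expression minimum, where more genes entered the adjustment, against 1754, and 338 to 2059 with 1 library left out. The cause of this range was not tested. Voom called 2347 genes. Members past the test numbered 0 with no expression minimum and 0 to 1 with 1 library left out. Genes of the pathway lists past the test numbered 6 with no expression minimum and 3 to 13 with 1 library left out. Of the members under 1 FPKM, 0 had groups without overlap, and 0 to 2 with 1 library left out. With all 6 libraries, 19.4% of all genes tested had every EN library below every EC library and 18.6% had every one above. These shares do not cover the fits with 1 library left out, so the 0 to 2 cannot be read against them. Of 8 neighbouring pairs in the order of levels, 4 kept their order in every library, and 4 to 5 with 1 library left out. The change of Sox10 was -0.031 without EN replicate 1 and up to 0.0859 without another library. The median log2 change of all genes was -0.0065 to 0.0278 over the settings.

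With the replicate number as a block, 1907 genes passed, and of the calls of named genes that of Gdf15 alone was lost (adjusted p = 0.0701). The deviations of same-numbered libraries had correlations of 0.0884, -0.0948 and -0.0199, within the -0.1106 to 0.1339 of the other pairs. No shared deviation by number was thus seen, but this cannot show whether libraries were handled in pairs. The planned negative binomial count tests were not run, and voom on the whole reads was run in their place. Under 10 reads per library, as for Gfra2, Gfra3, Gfra4, most libraries of Artn and some of Nrtn and Pspn, depth limits any comparison.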
